A study of Chlorocebus aethiops with 12 samples.

Results

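RASD1 and RASD2 encode a pair of closely related small GTPases of the Ras superfamily, and their RNA was measured here in COS-1, an African green monkey kidney line with fibroblast-like cells. Every non-control probe whose accession was NM_016084 (RASD1) or NM_014310 (RASD2) was kept, and each was read apart. This gave 4 probes, 2 for each gene, of the 41000 probes on the array. The RASD1 probes were A_23_P118392 and A_24_P348006, and the RASD2 probes were A_24_P357100 and A_23_P143673. Each of the 4 was printed as a single spot per array. RASD1 was selected on its measured rise under dexamethasone (Dex), a synthetic glucocorticoid, in S211A cells, so its values in that comparison are given as a description and without a test. RASD2 was taken with it as its relative, and is treated the same way there.

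The glucocorticoid receptor (GR) carrying the phosphorylation-site mutation S211A was transfected into the cells, alone or together with MDFIC, and the cultures were then given 100 nM Dex or vehicle for 6 h. The groups were S211A+MDFIC with Dex, S211A+MDFIC with vehicle, S211A with Dex and S211A with vehicle, with 3 biological replicates each per the labels and 12 one-colour arrays in all. All 4 groups carried the S211A receptor by transfection, and no group with the unmutated receptor or without transfected receptor was analysed here. The series asks whether the effect of MDFIC on GR-regulated transcription depends on phosphorylation of this receptor site.

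RASD1, also called Dexras1 or AGS1, was identified as a transcript induced by dexamethasone in mouse pituitary corticotroph cells. Its protein activates heterotrimeric G proteins of the inhibitory class without a receptor, and in neurons it is brought to neuronal nitric oxide synthase by an adaptor protein. RASD2, also called Rhes, is known for its high expression in the rodent striatum, where thyroid hormone regulates it, and for binding mutant huntingtin. Both proteins have a longer carboxy terminus than classical Ras and end in a site for farnesylation. Glucocorticoids enter the cell and bind GR, which then moves to the nucleus and acts on the promoters and enhancers of its target genes.

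The probes are human and the RNA is from the monkey, so a probe's level also reflects how well its sequence matches the monkey transcript. The levels of different probes were therefore not compared as amounts of RNA. Slide 1 had 67.8% to 71.7% of its probes well above background per array, slide 2 had 76.2% to 79.8% and slide 3 had 76.5% to 80.6%. All 3 S211A vehicle arrays lay on slide 1 with S211A Dex replicate 1. Slide 2 carried the other 2 S211A Dex arrays beside S211A+MDFIC vehicle replicates 1 and 2, and slide 3 carried S211A+MDFIC vehicle replicate 3 and all S211A+MDFIC Dex arrays. The number of arrays, 3 per group, limits the precision. RNA was taken from whole cultures, so that fewer cells with a transcript and less of it per cell cannot be told apart. The files pair no other accession with a gene name, and the other genes of the pathway were not analysed here.

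RASD1 was far higher under Dex in both kinds of cell. At probe A_23_P118392 the deposited intensity was 10058, 10904 and 7938 in S211A+MDFIC cells with Dex, against 836, 783 and 785 in S211A+MDFIC cells with vehicle. In S211A cells it was 8974, 9278 and 8213 with Dex, against 716, 769 and 675 with vehicle. Every Dex array was above every vehicle array, and the lowest Dex reading came from S211A+MDFIC Dex replicate 3. The scanner software's own error for this probe was 794 to 1090 on the S211A+MDFIC Dex arrays and 78.3 to 83.6 on the S211A+MDFIC vehicle arrays, far less than the gap between the groups.

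After the 75th percentile of each array was subtracted on the log2 scale, the mean level of this probe was 3.29 ± 0.12 in S211A+MDFIC cells with Dex, against -0.32 ± 0.09 in those with vehicle (SD, n = 3 each). The fitted change was log2 3.62 (SE 0.08), a 12.3-fold rise with a 95% interval of 10.9 to 13.9 (limma adjusted p = 2.53e-08). These 6 arrays are not those of the S211A comparison in which RASD1 was picked. The fit, however, took its spread from all 12 arrays, among them those of that comparison. Fitted on these 6 arrays alone, the change had a limma adjusted p of 0.000207. In S211A cells the means were 3.29 ± 0.10 with Dex and -0.35 ± 0.06 with vehicle (SD, n = 3 each), a difference of log2 3.64 or 12.4-fold.

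The second RASD1 probe, A_24_P348006, was dimmer but well above background on all 12 arrays. Its intensity was 431, 366 and 354 in S211A+MDFIC cells with Dex, against 32.1, 28.2 and 35.1 in S211A+MDFIC cells with vehicle. In S211A cells it was 267, 307 and 290 with Dex, against 31.6, 30.8 and 32.2 with vehicle. The groups with and without Dex did not overlap at this probe either. On the log2 scale its level was -1.35 ± 0.10 in S211A+MDFIC cells with Dex and -4.98 ± 0.08 in those with vehicle (SD, n = 3 each), a rise of log2 3.63 (SE 0.08) or 12.4-fold, with a 95% interval of 10.9 to 14.1 (limma adjusted p = 2.53e-08). In S211A cells it was -1.65 ± 0.08 with Dex and -4.86 ± 0.13 with vehicle (SD, n = 3 each), a difference of log2 3.21 or 9.26-fold.

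Both RASD1 probes thus passed the threshold of an adjusted p under 0.05 as rises in S211A+MDFIC cells, where 5.87% of the 31224 probes tested did so. The share of probes whose 3 Dex arrays all lay above the 3 vehicle arrays was 18.3% in S211A+MDFIC cells and 14.4% in S211A cells. The size of the rise of the second probe differed with normexp background correction, run on the median signals with an offset of 50. It was then log2 2.37 in S211A+MDFIC cells and 1.96 in S211A cells, against 3.48 and 3.51 at A_23_P118392. The offset is added to every signal and is larger than the vehicle intensities of the second probe, 28.2 to 35.1. By arithmetic it shrinks the change of so dim a probe.

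**Figure D1:**
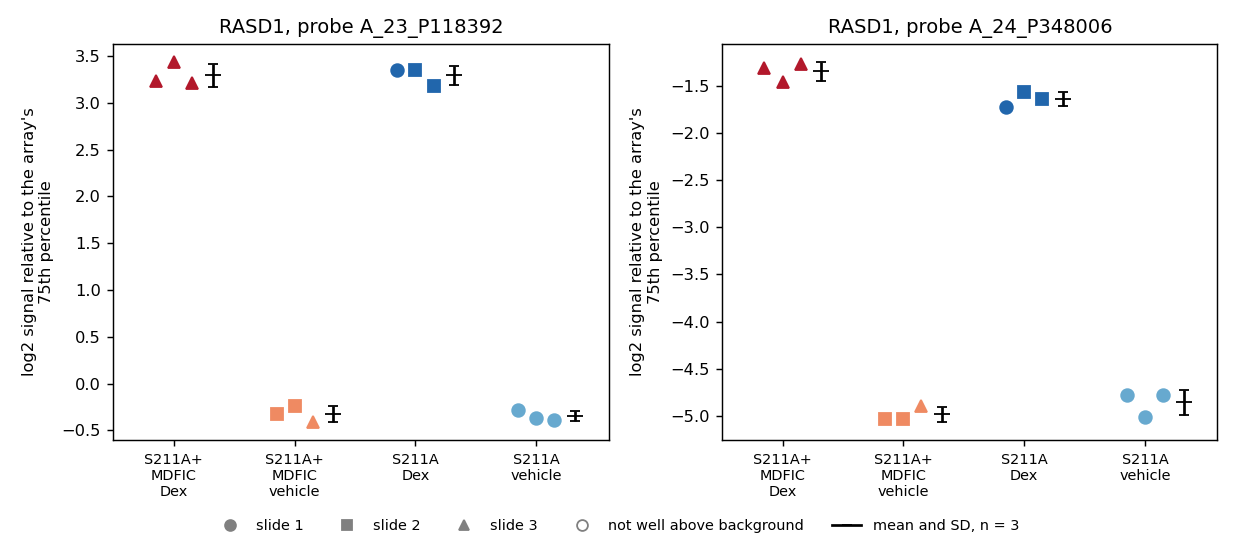
Level of the 2 RASD1 probes on each array, as log2 signal relative to the array's 75th percentile, by group, with marker shape for the slide and the mean and SD (n = 3) beside each group. At both probes all 6 Dex arrays lie about log2 3 or more above the vehicle arrays, and the groups with and without MDFIC lie close together.

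Few probes on the array moved as far. In S211A+MDFIC cells 2 of the 31224 probes tested had a larger fitted rise under Dex than A_24_P348006 and 3 had a larger one than A_23_P118392. In S211A cells 1 probe had a larger rise than A_23_P118392 and 4 had a larger one than A_24_P348006. Among the 26784 tested probes that were well above background on all 12 arrays, the RASD1 probes were the 2 largest rises in each kind of cell. The median change over all probes tested was log2 0.04 in S211A+MDFIC cells and 0.02 in S211A cells. These ranks describe the choice of RASD1 as much as the arrays and carry no test.

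**Figure D2:**
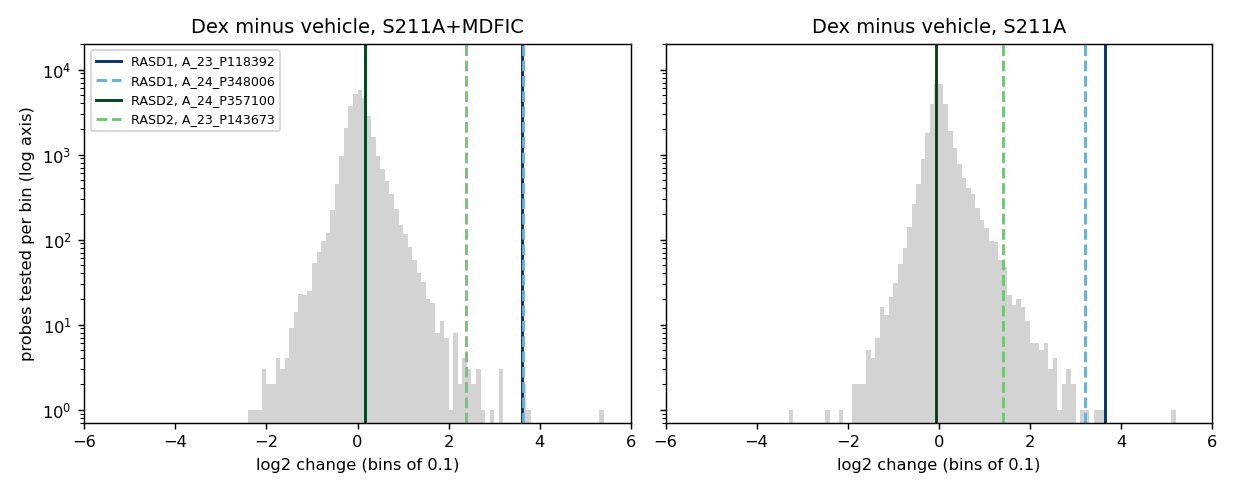
Distribution of the fitted log2 change under Dex over the 31224 probes tested, in bins of 0.1 with a log axis for the number of probes, in S211A+MDFIC cells (left) and S211A cells (right). Vertical lines mark the 4 probes: both RASD1 probes lie at the far right in both panels, RASD2 probe A_24_P357100 lies near 0, and A_23_P143673, whose vehicle signals were mostly not well above background, lies between them.

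The slides hold Dex and vehicle arrays of the same cells on slide 1 and on slide 3. Within slide 3, the 3 S211A+MDFIC Dex arrays averaged log2 3.70 above the 1 S211A+MDFIC vehicle array at A_23_P118392 and 3.54 at A_24_P348006. Within slide 1, the 1 S211A Dex array lay log2 3.70 above the mean of the 3 S211A vehicle arrays at A_23_P118392 and 3.13 at A_24_P348006. The rise of RASD1 was thus about as large within a slide as over all arrays.

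MDFIC made no difference to RASD1 that passed the test. The comparisons with S211A cells below all use arrays of the contrast with which RASD1 was picked, so their tests and intervals are not free of that choice. Picking on a high Dex change in S211A cells would tend to lower the difference under Dex and that between the Dex responses. At A_23_P118392, S211A+MDFIC minus S211A was log2 0.00 under Dex (SE 0.08, 95% interval -0.17 to 0.18, limma adjusted p = 0.993). Under vehicle it was 0.02 (SE 0.08, 95% interval -0.15 to 0.20, limma adjusted p = 0.920). The difference between the Dex responses, with MDFIC minus without, was -0.02 (SE 0.11, 95% interval -0.27 to 0.23, limma adjusted p = 0.958). On a linear scale this interval allows a Dex response with MDFIC of 0.829 to 1.17 times that without. Over the array 0.288% of probes passed for MDFIC under Dex, 0.753% for MDFIC under vehicle and 0.186% for the difference in Dex response.

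The second RASD1 probe did not give the same values. At A_24_P348006 the 3 S211A+MDFIC Dex arrays lay at log2 -1.46 to -1.28, all above the 3 S211A Dex arrays at -1.72 to -1.57. Of all probes tested, 6.94% showed such a gap upward. The difference under Dex was log2 0.30 (SE 0.08, 95% interval 0.11 to 0.48), which did not pass after adjustment (limma adjusted p = 0.209). Under vehicle the probe stood at -0.13 (SE 0.08, 95% interval -0.31 to 0.06, limma adjusted p = 0.499). The difference between the Dex responses was 0.42 (SE 0.12, 95% interval 0.16 to 0.69, limma adjusted p = 0.319). These comparisons too use the S211A arrays with which RASD1 was picked, those with Dex, those with vehicle or both. No slide holds S211A+MDFIC and S211A arrays of the same treatment. With slide as a fixed block, the difference under Dex at A_24_P348006 was 0.12 and that between the Dex responses 0.41, and neither passed. Both kept their sign under every alternative, including each array left out. The difference under Dex then ran from 0.12 to 0.41 and that between the Dex responses from 0.20 to 0.50. Their lowest limma adjusted p values were 0.0672 and 0.0910, both without S211A+MDFIC Dex replicate 2, and did not pass.

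The RASD1 probes thus gave nearly the same Dex change in S211A+MDFIC cells, at log2 3.62 and 3.63, and less similar ones in S211A cells, at 3.64 for A_23_P118392 and 3.21 for A_24_P348006. This split was noticed in the data and was not tested.

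In the order of levels, A_23_P118392 put S211A+MDFIC Dex and S211A Dex first at a mean of log2 3.29 each, then S211A+MDFIC vehicle and S211A vehicle. The ranges of the 2 Dex groups overlapped, and so did those of the 2 vehicle groups. At A_24_P348006 the order was S211A+MDFIC Dex, S211A Dex, S211A vehicle and S211A+MDFIC vehicle. There the ranges of the vehicle groups overlapped.

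RASD2 was read by one probe that barely moved and by another that was close to background. At A_24_P357100, well above background on all 12 arrays, the intensity was 190, 146 and 163 in S211A+MDFIC cells with Dex, against 156, 148 and 152 in those with vehicle. In S211A cells it was 129, 117 and 152 with Dex, against 130, 149 and 143 with vehicle. The Dex and vehicle arrays overlapped in both kinds of cell. The level was log2 -2.56 ± 0.20 in S211A+MDFIC cells with Dex and -2.72 ± 0.07 in those with vehicle (SD, n = 3 each). This change of 0.16 (SE 0.12, 95% interval -0.10 to 0.42) did not pass (limma adjusted p = 0.402). In S211A cells the level was -2.77 ± 0.19 with Dex and -2.71 ± 0.07 with vehicle (SD, n = 3 each), a difference of -0.06. The upper end of the interval in S211A+MDFIC cells corresponds to a 1.34-fold rise.

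The other RASD2 probe, A_23_P143673, was well above background on all 6 Dex arrays and on 1 of the 6 vehicle arrays. Its intensity was 39.0, 54.5 and 35.0 in S211A+MDFIC cells with Dex, against 11.2, 5.34 and 9.48 in those with vehicle, none of which was well above background. The scanner software's error was 4.41 to 6.05 on these Dex arrays and 2.77 to 3.46 on these vehicle arrays. In S211A cells the intensity was 36.4, 28.7 and 35.8 with Dex, against 14.1, 5.62 and 26.1 with vehicle, and the vehicle array at 26.1, replicate 3, was the one well above background. In both kinds of cell the Dex arrays all lay above the vehicle arrays. This held for 18.3% of all probes tested in S211A+MDFIC cells and 14.4% in S211A cells. The probe was tested only because its Dex groups were well above background, so this gap was partly built in.

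In S211A+MDFIC cells the fitted Dex change at A_23_P143673, against vehicle signals not well above background, was log2 2.39 (limma adjusted p = 0.0162). With dim vehicle signals raised to a floor, the probe was 3.66-fold higher with Dex, where its level was log2 -4.53 ± 0.29 (SD, n = 3). Each vehicle array was taken at its own signal or at the dimmest signal well above background on that array, whichever was higher. This floor comes from all probes of the array, so the value is no lower limit on the change. The probe entered the fit only through its Dex groups, where it is high, so a difference was partly built into its being tested, and the call is not used as support. With no filter on dim probes the limma adjusted p was 0.0267. With normexp the fitted change was log2 0.60, a smaller rise than the 3.66-fold found with the floor. The call ended with slide as a fixed block (limma adjusted p = 0.245), when vehicle replicate 2 (0.0701) or Dex replicate 3 (0.0536) of these cells was left out, and over all alternatives the adjusted p ran from 0.00153 to 0.245.

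In S211A cells 1 of the 3 vehicle arrays was well above background at A_23_P143673. With the same floor the probe was 1.69-fold higher with Dex, where the level was log2 -4.75 ± 0.21 (SD, n = 3). This value is no lower limit on the change either. The fitted difference, which takes the dim vehicle signals as they are, was log2 1.41. It was 0.76 without S211A vehicle replicate 2 and 1.95 without S211A vehicle replicate 3. With normexp, where the same offset shrinks it, the difference was 0.27. The 2 RASD2 probes carry the same accession but gave different changes under Dex, and which of them follows RASD2 in the monkey cells was not tested.

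**Figure D3:**
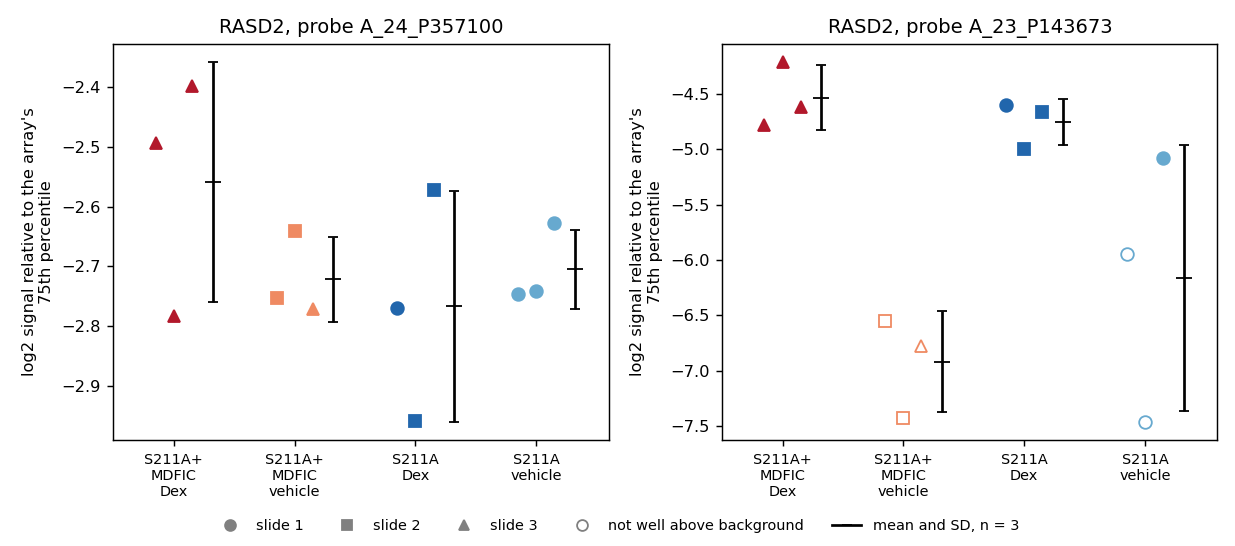
Level of the 2 RASD2 probes on each array, as log2 signal relative to the array's 75th percentile, by group, with marker shape for the slide, open markers where the spot was not well above background, and the mean and SD (n = 3) beside each group. A_24_P357100 stays between log2 -2.96 and -2.40 in all groups, whereas A_23_P143673 lies above log2 -5 on the Dex arrays and lower on the vehicle arrays; the panels have different scales.

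MDFIC made no difference at the RASD2 probes that passed the test where both sides were measured. At A_24_P357100, S211A+MDFIC minus S211A was log2 0.21 under Dex (SE 0.12, 95% interval -0.05 to 0.47, limma adjusted p = 0.461) and -0.02 under vehicle (SE 0.12, 95% interval -0.27 to 0.24, limma adjusted p = 0.964). The difference between the Dex responses was 0.23 (SE 0.16, 95% interval -0.14 to 0.59, limma adjusted p = 0.670). At A_23_P143673 the difference under Dex was 0.22 (SE 0.50, 95% interval -0.89 to 1.33, limma adjusted p = 0.870). This interval is several times as wide as those of the RASD1 probes. Its differences under vehicle and between the Dex responses are not given, since 5 of the 6 vehicle arrays were not well above background.

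**Figure D4:**
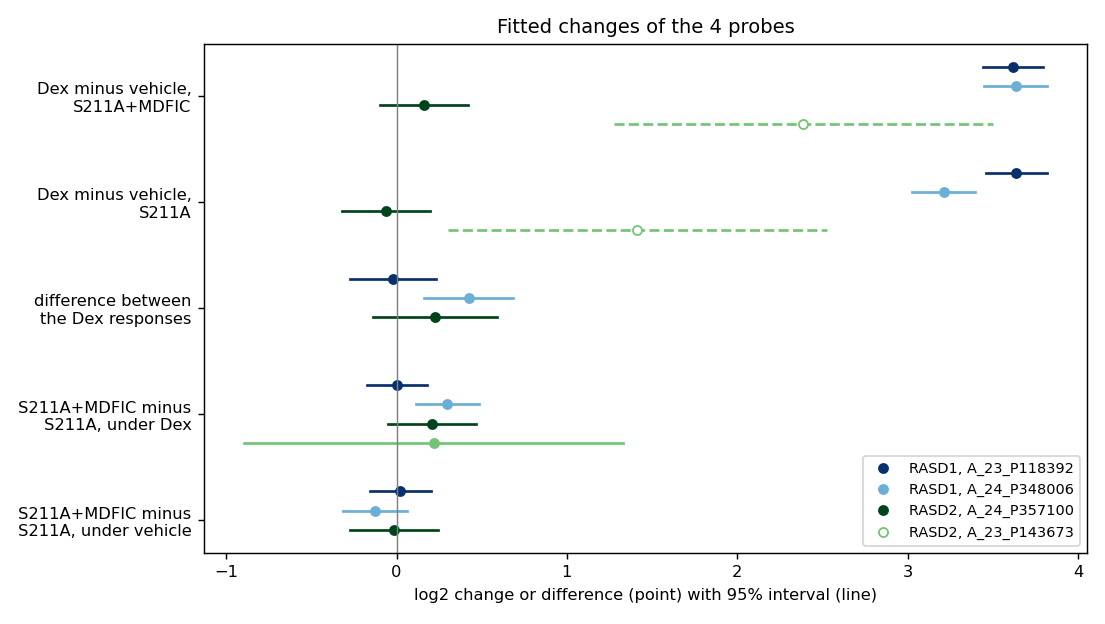
Fitted log2 changes of the 4 probes in the 5 comparisons, with their 95% interval from the limma fit over all 12 arrays. Those of Dex in S211A cells are a description, since RASD1 was picked on that comparison. The RASD1 probes lie between log2 3.21 and 3.64 in both Dex comparisons, and the comparisons of S211A+MDFIC with S211A lie much nearer to 0, with the intervals of A_24_P348006 above 0 in Dex arrays and in the contrast of the 2 Dex responses. Open markers with dashed lines are fits for RASD2 probe A_23_P143673 against vehicle arrays not all well above background, and its differences that need vehicle arrays alone or in both kinds of cell are left out.

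The profiles most like RASD1 were sought by Pearson correlation over the 12 arrays with A_23_P118392, among 26693 probes well above background and unflagged on every array. The closest accession was NM_000448 (r = 0.999), with a log2 change under Dex of 2.54 in S211A+MDFIC cells and 2.47 in S211A cells. The next was NM_001039966 (r = 0.998), with 2.15 and 2.07. The second RASD1 probe stood at r = 0.995. All of these probes were higher with Dex in both kinds of cell, and the correlations, which span Dex and vehicle arrays together, are given as a description. For RASD2 probe A_24_P357100 the closest were NM_017679 and NM_178422 (r = 0.968 and 0.967), whose changes under Dex lay between log2 -0.07 and 0.21. Its own second probe, A_23_P143673, stood at r = 0.205.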

How the data were processed

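Cy3-labelled cRNA made from total RNA was read on one-colour Agilent arrays, per the labels. The deposited values are linear intensity readings for 45015 spots per array written by version 12.0.0.7 of Agilent Feature Extraction according to the headers. Per the file headers, its processed signals are background-subtracted and detrended within each array; no scaling between arrays was found. The flags for spots well above background, saturated or outlying are a separate, other kind of deposited value, per the file headers. The authors' series-wide table held the same processed intensity in 540180 of 540180 values, within a relative tolerance of 1e-06. It is linear and uncentred.

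The processed signal was taken to log2 and each array's 75th percentile subtracted. The 945 outlier spots became missing values, saturation occurred in 0 spots, and 1639 control spots were left out. A probe was tested if, in at least 1 group, every spot of it on every array was well above background and each group gave it at least 2 values. This left 31224 probes, all 4 RASD1 and RASD2 probes among them. Probes were kept apart. Comparisons used limma 3.58.1 (R 4.3.3) with 1 mean per group fitted over the 12 arrays, two-sided tests and Benjamini-Hochberg adjustment over all probes tested in each of the 5 comparisons, with a threshold of 0.05. The fit was tested on simulated arrays. Figures were drawn with matplotlib 3.10.9.

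Members and gene lists were chosen with earlier results of these data known. The rule for named genes took the RASD1 and RASD2 probes and the 2 accessions most like each gene's brighter probe. The pathway and cell type lists, given as symbols, were not analysed here, since the files used do not pair accessions with symbols. Alternatives were normexp with an offset of 50 on the median signal, quantile and median scaling, no scaling, other filters, outliers kept, 1 value per accession, trend and robust moderation, only the groups compared, slide as a fixed or random block, a replicate block, and each array left out. The values within a slide were added after seeing the data.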

Additional observations from a re-analysis of the deposited data

How the results depend on the processing

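The Dex rise of both RASD1 probes in S211A+MDFIC cells passed under every alternative tested. The values in S211A cells are a description. Leaving out 1 array at a time gave log2 3.55 to 3.66 in S211A+MDFIC cells and 3.61 to 3.69 in S211A cells at A_23_P118392, and 3.60 to 3.69 and 3.13 to 3.25 at A_24_P348006. At RASD2 probe A_23_P143673 the leave-outs gave 2.13 to 2.57 in S211A+MDFIC cells and 0.76 to 1.95 in S211A cells. Most vehicle signals of this probe were not well above background, so these are fitted values and no bounds. Its call in S211A+MDFIC cells ended with slide as a fixed block (2.25). Taking 1 value per accession averaged the RASD2 probes and gave 1.28 in S211A+MDFIC cells, a call that A_24_P357100 alone did not give (0.16), and 0.68 in S211A cells.

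No MDFIC effect or difference between the Dex responses passed under any alternative. Some changed sign, but not A_24_P348006 under Dex or between the Dex responses. For A_23_P118392, MDFIC under Dex was -0.025 with normexp, -0.016 with median centring and -0.0063 with slide as a random block. Its difference between the Dex responses was 0.0035 with quantile normalization and 0.0044 with slide as a fixed block. The average of both RASD1 probes, with 1 value per accession, had an MDFIC effect under vehicle of -0.052 and 0.20 between the Dex responses. Under vehicle without scaling, A_24_P348006 stood at 0.0059 and A_24_P357100 at 0.12, where the median of all probes shifted by 0.12. With slide as a fixed block A_24_P357100 stood at 0.0036, and with normexp A_23_P143673 under Dex stood at -0.0042. Leaving out 1 array at a time, the difference between the Dex responses of A_23_P118392 ran from -0.092 to 0.023, its MDFIC effect under Dex from -0.069 to 0.043 and under vehicle from -0.021 to 0.065. For A_24_P357100 the Dex change in S211A cells ran from -0.16 to 0.034 and MDFIC under vehicle from -0.057 to 0.022.

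The deviations of same-numbered arrays from their group means correlated at -0.25 to 0.24 over 12 pairs from the groups compared. Of these pairs, 4 correlated above 0.1. With the replicate block the changes were as without it (A_23_P118392 in S211A+MDFIC cells 3.62, A_23_P143673 2.39), and no call on the 4 probes changed. A_23_P143673 has no value under the filter for all 12 arrays. Over all probes, the calls under alternatives ran from 651 to 5721 for Dex in S211A+MDFIC cells, against 2983, and from 619 to 2245 for Dex in S211A cells, against 1929. They ran from 9 to 672 for MDFIC under Dex, against 90, from 68 to 1829 for MDFIC under vehicle, against 235, and from 0 to 184 for the difference between the Dex responses, against 58.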

Other observations

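Slide 2 held 2 S211A Dex arrays and 2 S211A+MDFIC vehicle arrays, a pair of groups that differ in both hormone and MDFIC and so belong to no comparison above. There S211A Dex minus S211A+MDFIC vehicle was log2 3.54 at RASD1 probe A_23_P118392 and 3.42 at A_24_P348006. At RASD2 probe A_24_P357100 it was -0.07. The other RASD2 probe was not well above background on these vehicle arrays, and no difference is given. Within S211A Dex, the slide 2 arrays differed from the slide 1 array by log2 -0.09 at A_23_P118392 and 0.11 at A_24_P348006.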
